A study of Mus musculus with 4 samples.

Results

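The 9 genes described here encode subunits of voltage-gated sodium channels: the 6 alpha subunit genes Scn1a, Scn2a, Scn3a, Scn8a, Scn9a and Scn10a and the 3 beta subunit genes Scn2b, Scn3b and Scn4b. They were chosen by gene symbol, and all 9 were found among the 25239 gene symbols of the tables. RNA came from mouse cochleovestibular ganglia, the paired primordia of the auditory and vestibular sensory ganglia, at embryonic day 11.5. There was 1 library for each of the genotype labels control, Isl1CKO, Pou4f1KO and DKO, which were read as control, conditional loss of Isl1, loss of Pou4f1 and loss of both. ISL1 is a LIM-homeodomain factor and POU4F1 a POU-homeodomain factor of developing sensory neurons. The Cre driver of the conditional allele, the genotype of the control embryos and whether ganglia were pooled are not given in the sources used here.

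A voltage-gated sodium channel opens when the membrane depolarises and carries the inward current of the action potential. The alpha subunit is a single large protein that forms the pore, the voltage sensors and the inactivation gate. Beta subunits are small membrane proteins with an immunoglobulin-like domain that adjust gating and surface expression and act in cell adhesion. Sensory ganglia use a mixture of alpha subunits, and afferent neurons of the inner ear depend on them to send spikes to the hindbrain.

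Levels are given in TPM, a transcript unit corrected for the length of each gene and for the size of each library. Coverage at a given TPM differed between genes, so orders of genes by TPM and by coverage can differ. Differences between libraries are log2 ratios of (TPM + 1), and 2-fold means a log2 ratio of at least 1 in size. Because no genotype was replicated, no difference has an error or a p-value, and each is a statement about these libraries. The depth in reads is unknown. For 63.3% to 63.5% of rows above 0.01 FPKM, a level of 1 TPM meant a mean coverage of 4.95 to 5.93 reads per base. Other genes departed from this: in control, Scn8a had a coverage of 54.3 reads per base at 16.8 TPM. The 4 libraries held 13.6 to 16.6 gigabases of aligned sequence. Pou4f1 stood at 146 TPM in control against 188, 16.6 and 14.6 TPM in Isl1CKO, Pou4f1KO and DKO. Isl1 was at 450 TPM in control and higher, at 854 and 579 TPM, in the libraries labelled Isl1CKO and DKO. Counts over a complete gene can miss the loss of some of its exons, and so the Isl1 level does not check those 2 labels. Isl1CKO and DKO below mean the libraries so labelled.

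Scn9a was the highest of the 9 genes in control, and in the library labelled DKO it was 4.58-fold lower. Scn10a was lower in all 3 mutant libraries. The other 6 compared members stayed within 2-fold of control, among them Scn8a and Scn3a, so that the mixture of alpha subunit transcripts differed between the libraries. In control the levels ran from Scn9a (66.8 TPM) and Scn3b (52.3 TPM) through Scn3a (25.8 TPM) and Scn8a (16.8 TPM) to Scn2b (5.88 TPM), Scn10a (5.07 TPM), Scn2a (4.07 TPM), Scn1a (1.05 TPM) and Scn4b (0.346 TPM). With 1 library there is no spread by which neighbours in this order could be separated.

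**Figure D1:**
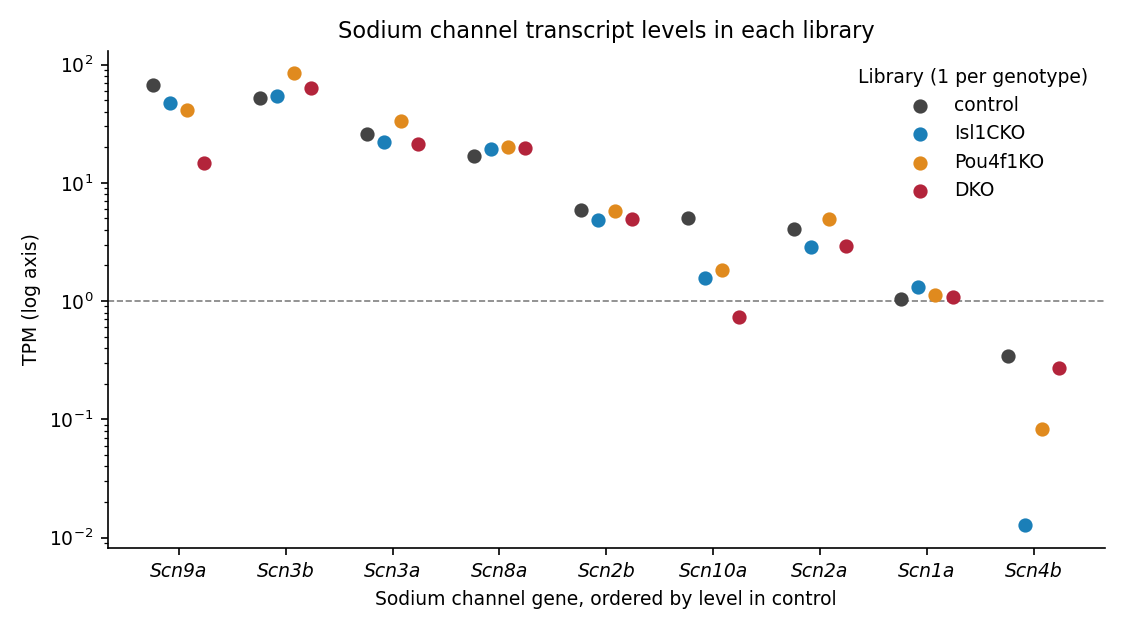
TPM (log axis) of the 9 sodium channel genes, ordered by their level in control, with 1 point for each of the 4 libraries; the dashed line marks 1 TPM. Scn9a and Scn10a spread widely between libraries, at 14.6 to 66.8 TPM and 0.730 to 5.07 TPM, whereas the 4 points of Scn8a lie between 16.8 and 20.0 TPM.

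Scn9a encodes NaV1.7, the tetrodotoxin-sensitive channel of peripheral sensory and sympathetic neurons that amplifies small depolarisations. The gene lies on the minus strand of mouse chromosome 2 in mm10, from 66480081 to 66634962, spans 155 kb and has up to 28 exons in GENCODE M21. It stood at 66.8 TPM in control against 47.3, 41.0 and 14.6 TPM in Isl1CKO, Pou4f1KO and DKO. Both single mutants were below control and above DKO. Its mean coverage was 392, 231, 234 and 84.1 reads per base in the same order. The log2 ratio to control was -0.49 in Isl1CKO, -0.69 in Pou4f1KO and -2.12 in DKO. In DKO the level was 21.9% of control, 30.9% of Isl1CKO and 35.6% of Pou4f1KO. Its ratio of DKO to control ranked 41st from the lowest among 15049 compared genes.

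Scn10a encodes NaV1.8, the tetrodotoxin-resistant channel best known from nociceptive neurons. It lies on the minus strand of chromosome 9, from 119608456 to 119719032, with up to 28 exons. It stood at 5.07 TPM in control against 1.56, 1.83 and 0.730 TPM in Isl1CKO, Pou4f1KO and DKO. Control was the highest library and DKO the lowest. These values rest on a mean coverage of 30.1, 7.70, 10.6 and 4.25 reads per base. The log2 ratio to control was -1.25, -1.10 and -1.81, which understates the differences in plain TPM, where the mutants were at 30.7%, 36.1% and 14.4% of control. All 3 calls ended with a pseudocount of 5 TPM (-0.62, -0.56 and -0.81), and with FPKM in place of TPM those of both single mutants did (-0.85 and -0.78), with -1.16 left in DKO.

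Promoter sequences of both lower members are shown beside those of Scn2a and Scn8a, which stayed within 2-fold of control, so that sites for homeodomain factors can be compared. Each run is the 250 bases before the annotated start, 5′ to 3′ on the strand of the gene, from the RefSeq promoter table of GRCm38.p6. Capitals mark each TAAT, the core bound by many homeodomain proteins, or ATTA on the other strand, and each CTAATG, an ISL1-type word that contains TAAT, or its complement CATTAG. The positions are chr2:66634963-66635212 on the minus strand for Scn9a, chr9:119719033-119719282 on the minus strand for Scn10a, chr2:65620519-65620768 on the plus strand for Scn2a and chr15:100870395-100870644 on the plus strand for Scn8a.
Scn9a: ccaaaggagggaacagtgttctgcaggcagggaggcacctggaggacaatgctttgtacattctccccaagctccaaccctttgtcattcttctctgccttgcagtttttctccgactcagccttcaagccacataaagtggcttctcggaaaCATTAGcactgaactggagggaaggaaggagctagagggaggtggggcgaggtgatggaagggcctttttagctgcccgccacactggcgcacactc
Scn10a: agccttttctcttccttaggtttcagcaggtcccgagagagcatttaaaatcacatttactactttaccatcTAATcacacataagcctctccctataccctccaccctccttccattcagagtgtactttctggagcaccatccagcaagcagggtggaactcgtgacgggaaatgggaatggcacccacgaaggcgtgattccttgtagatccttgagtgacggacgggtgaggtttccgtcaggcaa
Scn2a: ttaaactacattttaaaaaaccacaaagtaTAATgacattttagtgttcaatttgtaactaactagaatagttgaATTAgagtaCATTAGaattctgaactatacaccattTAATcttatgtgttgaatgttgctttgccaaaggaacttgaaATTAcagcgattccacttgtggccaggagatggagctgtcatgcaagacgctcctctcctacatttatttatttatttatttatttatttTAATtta
Scn8a: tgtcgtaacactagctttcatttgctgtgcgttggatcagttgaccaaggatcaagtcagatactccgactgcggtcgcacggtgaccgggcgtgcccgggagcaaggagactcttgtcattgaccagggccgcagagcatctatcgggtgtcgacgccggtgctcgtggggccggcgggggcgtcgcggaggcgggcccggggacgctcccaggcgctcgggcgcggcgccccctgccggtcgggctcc

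In the entries shown, the counts of these words did not order the 4 windows by the difference of their genes. Scn9a held 1 TAAT core, 96 bases before the start, within its 1 CTAATG match, and Scn10a held 1 TAAT core, 178 bases before the start. The Scn2a window held 6 TAAT cores and 1 CTAATG match and the Scn8a window 0 of either, and these genes had log2 ratios of DKO to control of -0.37 and 0.21. The windows shown for Scn2a and Scn8a are the first of 2 entries each. The second entry of Scn2a held 0 TAAT cores and 0 CTAATG matches, and that of Scn8a held 2 TAAT cores and 0 CTAATG matches. The order of the windows by these counts thus depends on which entry is taken. Which start is used in the ganglia was not tested. Among the other members with a promoter, Scn1a held 0 TAAT cores, Scn2b 2 and Scn4b 1. Over the 32851 promoters of the same length in the table, 54.9% held TAAT and 6.36% held CTAATG. The longer words TAATTA, in 4.84% of all promoters, and ATTAAT, a word of POU4-type sites, in 4.39%, had no match in these 4 windows. The base composition also differed, with 54.4% G and C in the Scn9a window, 49.6% in that of Scn10a, 29.6% in that of Scn2a and 68.0% in that of Scn8a, against a median of 52.4%. Promoters of 7 of the 9 members were matched by symbol; Scn3a and Scn3b were not. A match is a string of letters and does not show that a factor binds.

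Scn3a encodes NaV1.3, the alpha subunit typical of embryonic neurons, and lies on the minus strand of chromosome 2 from 65457118 to 65567492. It was at 25.8 TPM in control against 22.0, 33.6 and 21.4 TPM in Isl1CKO, Pou4f1KO and DKO. Pou4f1KO was the highest library and DKO the lowest. Its log2 ratio to control was -0.22, 0.37 and -0.26, and that of DKO to Pou4f1KO was -0.62. Scn8a encodes NaV1.6, the main alpha subunit of mature axon initial segments and nodes of Ranvier, and is the member on chromosome 15, from 100870645 to 101045938 on the plus strand. It was at 16.8, 19.4, 20.0 and 19.7 TPM, so that control was the lowest library and the 3 mutants were nearly level. The log2 ratios were 0.20, 0.24 and 0.21.

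The remaining alpha subunits were low. Scn2a encodes NaV1.2, the channel of early central axons (chromosome 2, 65620769 to 65767447, plus strand), and was at 4.07 TPM in control against 2.87, 4.92 and 2.91 TPM in Isl1CKO, Pou4f1KO and DKO. The libraries with the Isl1 label were the lower pair. Its log2 ratio to control was -0.39, 0.22 and -0.37. Scn1a encodes NaV1.1, which is prominent in fast-spiking and proprioceptive neurons (chromosome 2, 66270782 to 66440837, minus strand), and was at 1.05, 1.31, 1.12 and 1.09 TPM. Its coverage was only 6.22 to 6.49 reads per base, and its log2 ratios of 0.17, 0.05 and 0.03 were the smallest in size among the alpha subunits in DKO.

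Among the beta subunits, Scn3b was by far the most abundant. It encodes β3, a subunit of developing neurons that associates with the alpha subunit without a covalent bond. The gene lies on the plus strand of chromosome 9 from 40269216 to 40291618. Scn3b was at 52.3 TPM in control against 54.0, 84.4 and 63.4 TPM in Isl1CKO, Pou4f1KO and DKO. Pou4f1KO was the highest library, with log2 ratios to control of 0.05, 0.68 and 0.27. Scn2b encodes β2, which is linked to the alpha subunit by a disulfide bond (chromosome 9, 45117876 to 45130070, plus strand), and was at 5.88, 4.89, 5.78 and 4.95 TPM. Its log2 ratios were -0.22, -0.02 and -0.21, again with the libraries of the Isl1 label as the lower pair. Scn4b encodes β4, known for its part in resurgent current (chromosome 9, 45138624 to 45154156, plus strand), and was at 0.346, 0.0127, 0.0823 and 0.274 TPM. It was under 1 TPM in all 4 libraries, with a coverage of 0.0629 to 2.05 reads per base, and was not compared.

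Of the 9 members, 8 reached 1 TPM in at least 1 library and were compared, and none of these 8 reached it in 1 library alone. In Isl1CKO 1 of 8 was at least 2-fold lower than control (Scn10a) and 0 higher, where 0.618% of all compared genes were lower and 0.585% higher. In Pou4f1KO 1 was lower (Scn10a) and 0 higher, against 1.73% and 0.977% of all compared genes. In DKO 2 were lower (Scn9a and Scn10a) and 0 higher, against 2.34% and 1.01%. The median log2 ratio of the 8 members was -0.22, 0.14 and -0.23, and that of all compared genes was -0.02, 0.02 and -0.01. These 3 comparisons share the control library. Against Isl1CKO, the library labelled DKO had 1 member lower (Scn9a, log2 ratio -1.63) and 0 higher, with 1.23% and 0.870% of all genes. Against Pou4f1KO it again had 1 lower (Scn9a, -1.43) and 0 higher, with 1.12% and 0.645%.

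**Figure D2:**
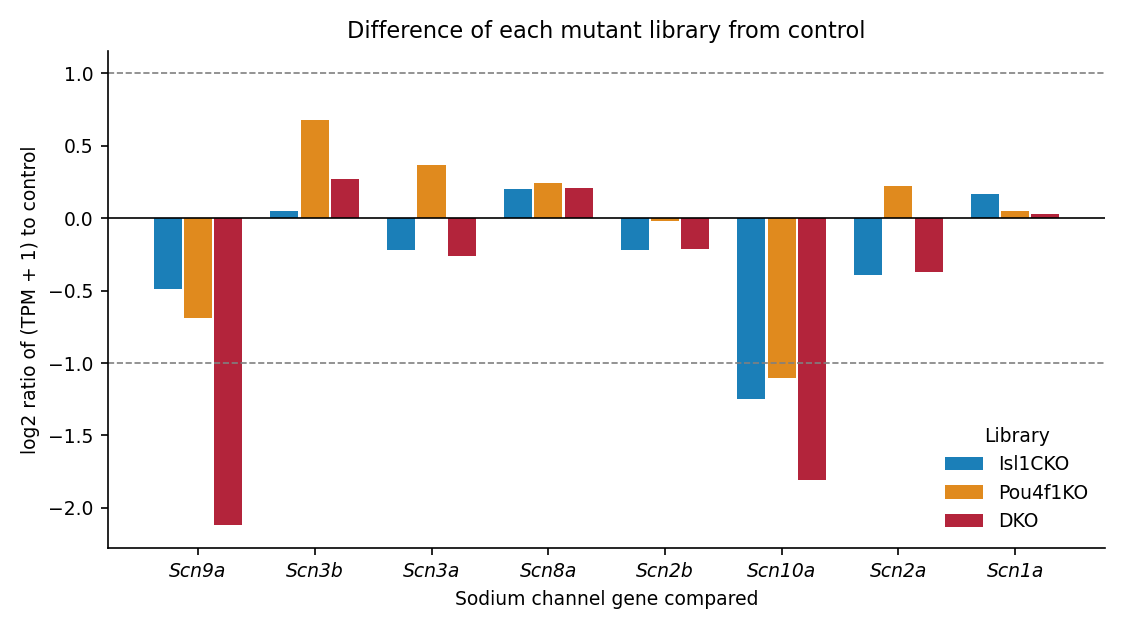
Log2 ratio of (TPM + 1) of each mutant library to control for the 8 compared sodium channel genes, with 1 bar per library; dashed lines mark 2-fold. The bars of Scn9a in DKO (-2.12) and of Scn10a in all 3 libraries (-1.25, -1.10 and -1.81) pass the lower line, and no bar passes the upper one.

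The makeup of the alpha subunit transcripts differed between libraries. The 6 alpha subunit genes summed to 120 TPM in control against 94.5, 102 and 60.4 TPM in Isl1CKO, Pou4f1KO and DKO, log2 ratios to control of -0.34, -0.22 and -0.98 (-0.40, -0.51 and -1.11 with libraries scaled to equal pan-neuronal genes). Without Scn9a the sums were 52.8, 47.2, 61.5 and 45.8 TPM, so Scn9a made up most of the difference of DKO. Scn9a was 55.9% of the control sum and 50.1%, 40.0% and 24.2% of the Isl1CKO, Pou4f1KO and DKO sums. Scn3a held 21.6%, 23.3%, 32.8% and 35.5%, and Scn8a 14.1%, 20.6%, 19.6% and 32.5%. These shares rest on TPM. By mean coverage in DKO, Scn3a had 116, Scn9a 84.1 and Scn8a 62.3 reads per base, so Scn9a stood above Scn8a. Scn9a stood at 2.59 times the level of Scn3a in control and at 0.681 times in DKO. The beta subunit genes summed to 58.6, 58.9, 90.2 and 68.6 TPM. Alpha over beta was therefore 2.04 in control against 1.60, 1.14 and 0.881 in Isl1CKO, Pou4f1KO and DKO.

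**Figure D3:**
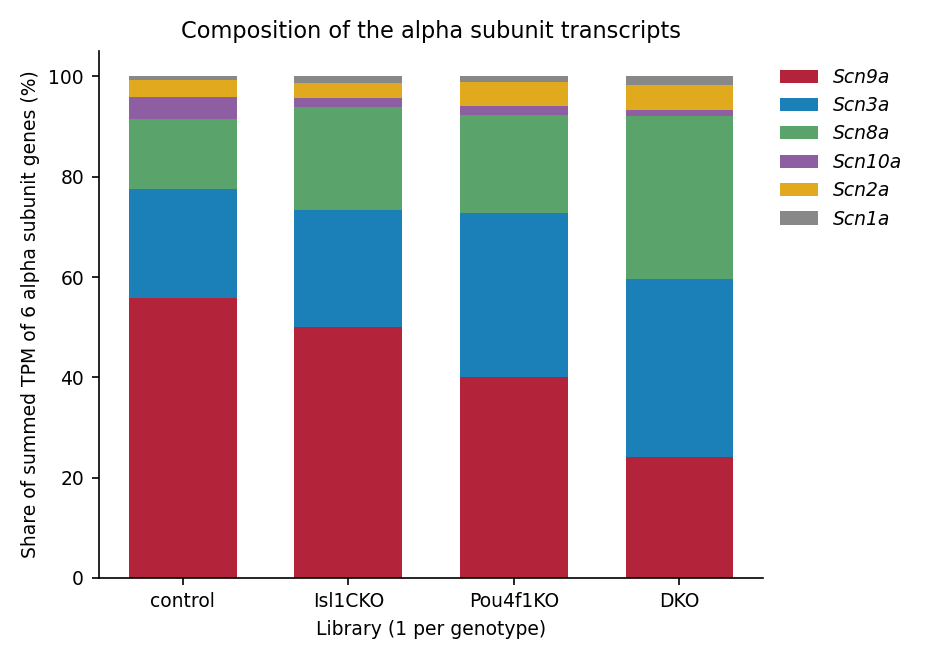
Share (%) of each alpha subunit gene in the summed TPM of the 6 alpha subunit genes, with 1 stacked bar per library. Scn9a is the largest part in control (55.9%), Isl1CKO (50.1%) and Pou4f1KO (40.0%), and Scn3a (35.5%) and Scn8a (32.5%) are the largest in DKO by TPM. By mean coverage in DKO, Scn9a (84.1 reads per base) stood above Scn8a (62.3).

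The ganglion is mixed tissue, and fewer cells of a type cannot be told apart from less RNA per cell in bulk libraries. The 32 pan-neuronal genes summed to 19651 TPM in control against 20770, 22028 and 18870 TPM in Isl1CKO, Pou4f1KO and DKO, and their median log2 ratios were 0.06, 0.29 and 0.12. Of these, 31 reached 1 TPM, and Thy1, listed at 0 in Pou4f1KO and DKO, did not. In DKO 1 of the 31 was at least 2-fold lower and 0 higher, against 2.34% and 1.01% of all compared genes. Single genes of the list ran from -1.39 to 0.98 there. None was 2-fold from control in Isl1CKO or Pou4f1KO. With libraries scaled to equal pan-neuronal genes, Scn9a had log2 ratios to control of -0.55, -0.97 and -2.23. This scaling moved the median of all genes to -0.08, -0.25 and -0.12. It turned the sign of Scn2a (-0.01), Scn8a (-0.03) and Scn1a (-0.09) in Pou4f1KO, of Scn1a in DKO (-0.04) and of Scn3b in Isl1CKO (-0.02), and left Scn3b in Pou4f1KO at 0.39.

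Markers of other cells moved with several of these results. Otic epithelium markers summed to 802 TPM in control against 507, 374 and 245 TPM in Isl1CKO, Pou4f1KO and DKO, with 3, 18 and 16 of 24 compared genes lower, and surface ectoderm markers to 397, 237, 85.2 and 89.4 TPM, with 0, 10 and 10 of 12 lower. Against control, both lists were lower where Scn9a and Scn10a were lower, and no marker of either was listed at 0. The otic list also had 1 gene at least 2-fold higher, in Pou4f1KO. Between DKO and Pou4f1KO, where Scn9a differed by -1.43, 0 of 12 surface ectoderm genes were lower in DKO and 1 was higher. Of the 24 otic genes, 4 were then lower and 1 higher. Between DKO and Isl1CKO, Scn9a differed by -1.63. In that pair 11 of 24 otic and 7 of 12 surface ectoderm genes were lower in DKO, and 0 of either list were higher. In Pou4f1KO, where Scn3a and Scn3b were highest, 19 of 31 neural tube and hindbrain genes and 10 of 11 Hox genes were higher and 4 and 0 were lower, and these lists summed to 226 and 103 TPM against 151 and 35.8 TPM in control. Hoxb7, Hoxc6 and Hoxc8 were at 0 in that library. In DKO the same lists summed to 143 and 42.8 TPM. Genes of placode-derived ganglion neurons summed to 2954, 3528, 3119 and 3205 TPM, with 1, 4 and 9 of 25 lower and 1, 1 and 0 higher in Isl1CKO, Pou4f1KO and DKO. The lowest log2 ratios of this list in Pou4f1KO and DKO (-3.06 and -3.23) equal those of the targeted gene Pou4f1. Muscle genes summed to 67.8, 206, 88.9 and 224 TPM, high in the libraries where Scn2a and Scn2b were low, with 1 of 7 compared genes higher in Isl1CKO and in DKO and Myf5 at 0 in Pou4f1KO. Mesenchyme genes summed to 261 to 490 TPM, glia and neural crest genes to 890 to 1066, endothelial genes to 95.7 to 160, erythroid genes to 6198 to 7578 and macrophage genes to 54.4 to 71.5. Against control, each of these lists had 0 or 1 gene past 2-fold in each mutant. Against Isl1CKO, DKO had 6 of 19 mesenchyme and 2 of 13 endothelial genes higher and 0 lower. Against Pou4f1KO it had 4 of 19 mesenchyme and 1 of 13 erythroid genes higher, and 2 of 13 glia and neural crest genes lower. The part of these cells in the sodium channel values was not tested. Rn45s, a ribosomal RNA precursor, was at 3003 TPM in Pou4f1KO and 655 to 844 TPM elsewhere. The ratios of Pou4f1KO to control and of DKO to Pou4f1KO use that library, and the ratio of DKO to control does not. The part of this RNA in the sodium channel values was not tested.

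The 2-by-2 set of labels gives the difference tied to each label in a pair of backgrounds with no library in common. For the Isl1 label, 5 of 8 members were lower in both pairs: Scn2a, Scn3a, Scn9a, Scn10a and Scn2b. By sign alone, 33.9% of all compared genes were lower and 22.4% higher in both pairs, and small differences such as those of Scn2b (-0.22 and -0.19) count here. Scn9a had a log2 ratio of -0.49 for Isl1CKO to control and -1.43 for DKO to Pou4f1KO. Scn10a went the other way in size, with -1.25 and -0.71. Its level in DKO, 0.730 TPM, was below the pseudocount of 1 TPM, which draws such ratios toward 0. With a pseudocount of 0.1 TPM the pair was -1.64 and -1.22. For the Pou4f1 label, Scn9a and Scn10a were lower in both pairs, at -0.69 and -1.63 for Scn9a and -1.10 and -0.56 for Scn10a. Over all compared genes, 26.5% were lower and 33.7% higher in both. Scn3b was higher in both, at 0.68 and 0.23. Scn2a (0.22 and 0.01) and Scn8a (0.24 and 0.02) were also higher in both, but their signs turned under pan-neuronal scaling.

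The departure from additivity is the log2 ratio of DKO to control minus the sum of those of both single mutants. It uses all 4 libraries and leaves no residual degrees of freedom. It was -0.94 for Scn9a, so DKO was lower than the product of both single differences, and 0.54 for Scn10a. The Scn10a value rests on a DKO level of 0.730 TPM, below the pseudocount, and ranged from 0.37 to 0.71 under the alternatives. No member reached 1 in size, against 1.41% of all compared genes at 1 or higher and 1.11% at -1 or lower. The other compared members ran from -0.45 (Scn3b) to 0.04 (Scn2b), around a median of -0.22 for all 8. The 31 compared pan-neuronal genes had departures of -0.73 to -0.10 with a median of -0.31, and all compared genes had a median of -0.01. Some lists of other cells departed more. The median was -0.98 for neural tube and hindbrain genes, with 15 of 31 at -1 or lower and 1 at 1 or higher. For Hox genes it was -1.96, with 9 of 11 at -1 or lower and 0 at 1 or higher. Of 19 mesenchyme genes, 10 were at 1 or higher and 0 at -1 or lower. Surface ectoderm genes had a median of 0.94, with 4 of 12 at 1 or higher and 0 at -1 or lower. For endothelial genes it was 0.80, with 1 of 13 and 0. Genes of placode-derived ganglion neurons had a median of -0.21, with 3 of 25 at -1 or lower and 0 at 1 or higher. Glia and neural crest genes had a median of -0.03, with 1 of 13 at -1 or lower and 0 at 1 or higher. Otic genes had a median of 0.15, with 4 of 24 at 1 or higher and 1 at -1 or lower. The part of these cells in the departure of Scn9a was not tested. Under pan-neuronal scaling the departure of Scn9a was -0.71.

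**Figure D4:**
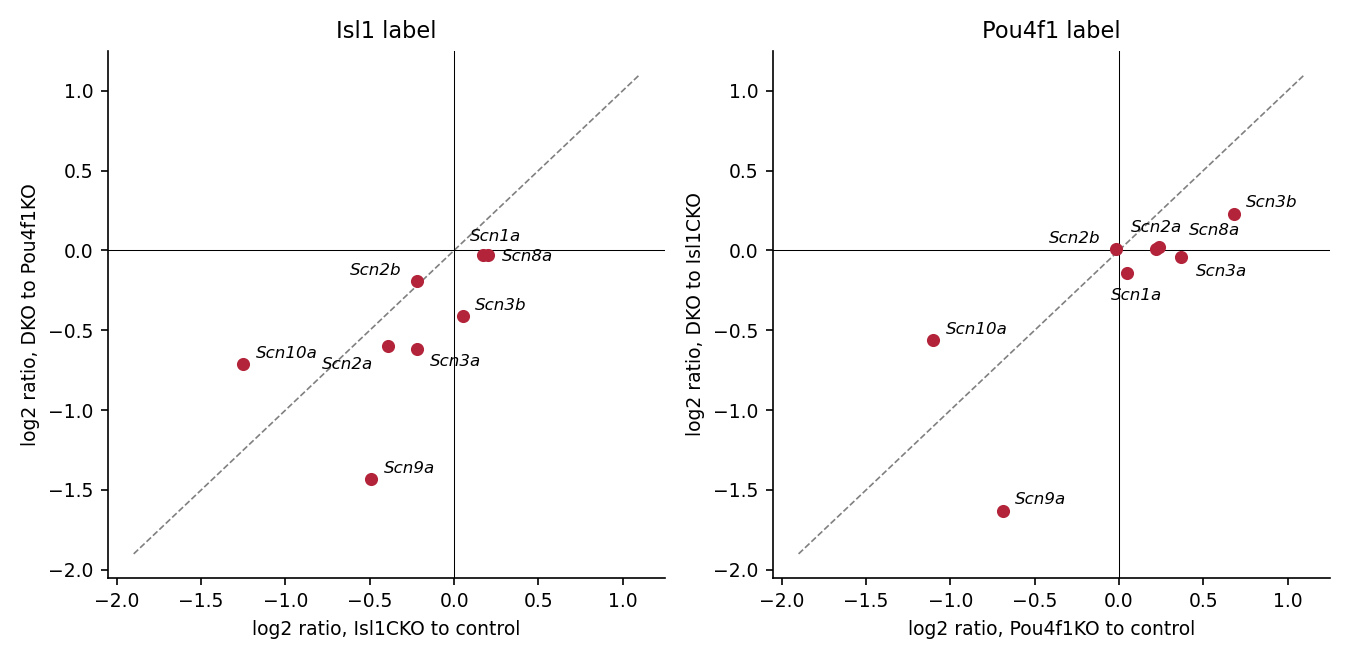
Log2 ratio of (TPM + 1) for each label in both backgrounds, with 1 point per compared sodium channel gene: without the other label on the x axis and with it on the y axis, and equal values on the dashed line. Scn9a lies below the line in both panels (-0.49 and -1.43 for Isl1, -0.69 and -1.63 for Pou4f1), and Scn10a lies above it.

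The positions of the genes were compared next. Scn3a, Scn2a, Scn1a and Scn9a lie in 1 cluster on chromosome 2 together with Scn7a, which encodes the atypical sodium channel NaX and is no member here. Scn7a, the neighbour of Scn9a, was at 16.6, 12.9, 10.3 and 4.85 TPM, with log2 ratios to control of -0.34, -0.63 and -1.59. The genes at the other end, Scn3a and Scn2a, were within 2-fold of control in all 3 mutants. Between them, Csrnp3 had log2 ratios of -0.29, 0.83 and 0.29, Galnt3 of -0.72, -1.58 and -1.35, and Ttc21b of -0.00, -0.05 and -0.04. With a pseudocount of 5 TPM the values of Galnt3 were -0.69 in Pou4f1KO and -0.62 in DKO, and with FPKM the value in DKO was -0.87, so the DKO call ended under both. Scn1a, which lies between Ttc21b and Scn9a, was level.

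On chromosome 9, Scn11a, a neighbour of Scn10a that encodes NaV1.9, was at 0.0259 to 0.109 TPM and was not compared. Scn2b and Scn4b are neighbours elsewhere on chromosome 9. Alpha subunit genes are similar in sequence, and the handling of reads that match several genes is not stated in the labels or headers. Of all 100-base windows of the longest coding transcript, 1.96% in Scn9a, 2.95% in Scn3a, 1.53% in Scn2a and 1.22% in Scn1a also occurred in another sodium channel gene, and 0% in Scn8a, Scn10a and the 3 beta subunit genes. The antisense gene Gm13629, which overlaps Scn9a, stood at 0 to 0.0471 TPM.

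**Figure D5:**
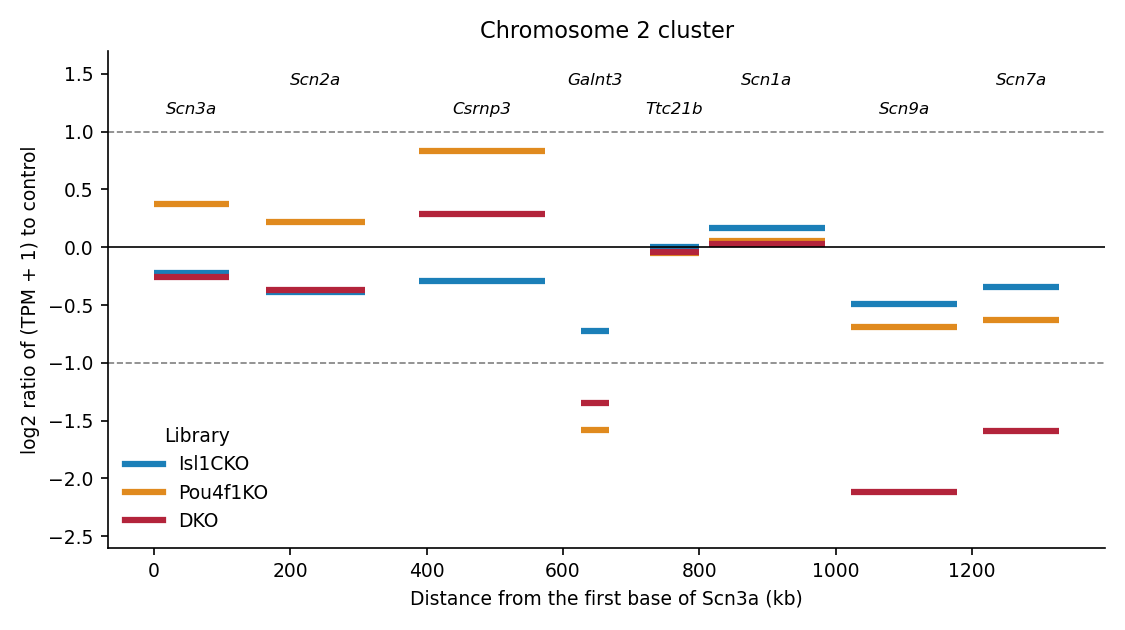
Log2 ratio of (TPM + 1) to control along the sodium channel gene cluster of chromosome 2, against the distance in kb from the first base of Scn3a; each bar spans 1 gene, colours give the library and dashed lines mark 2-fold. In DKO the adjacent genes Scn9a (-2.12) and Scn7a (-1.59) lie below the lower line, as does Galnt3 (-1.35), whose value was -0.62 with a pseudocount of 5 TPM and -0.87 with FPKM.

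Other genes of the sodium channel family and its partners were examined from lists. Nalcn, the sodium leak channel, was at 2.39, 0.943, 2.24 and 1.04 TPM, lowest in both libraries with the Isl1 label. Its log2 ratios were -0.80, -0.06 and -0.73. The muscle channel gene Scn4a was at 0.0205 to 0.161 TPM and not compared, and the splicing factor gene Scnm1 was at 110 to 130 TPM.

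Of the 44 channel partners and axon initial segment genes, none was 2-fold from control in Isl1CKO or Pou4f1KO, and in DKO 1 was lower and 0 higher, close to the 2.34% and 1.01% of all compared genes. The list medians were 0.04, 0.18 and 0.06, and single genes ran from -0.62 to 0.47 in Isl1CKO, from -0.58 to 0.81 in Pou4f1KO and from -1.55 to 0.61 in DKO. The lower gene was Cntn2, an axonal cell adhesion molecule, at 97.8 TPM in control against 77.0, 64.9 and 32.7 TPM in Isl1CKO, Pou4f1KO and DKO (log2 ratio -1.55). The most abundant partners in control by TPM were Calm2 (1863 TPM), Nedd4 (1093 TPM), Calm3 (968 TPM) and Gnb1 (573 TPM), with log2 ratios of DKO to control of -0.05, -0.04, 0.16 and 0.05. By mean coverage in control, Nedd4 (1676 reads per base) stood below Calm3 (5739) and Gnb1 (3373). Chosen after their values were seen, Ank3, the ankyrin that anchors the channels at the axon initial segment, was at 67.8, 61.5, 93.7 and 69.8 TPM. Fgf13, an intracellular FGF-like protein that binds the alpha subunit, was at 102, 90.4, 70.3 and 68.3 TPM. Its mean coverage was only 4.04, 3.03, 3.03 and 2.92 reads per base, far below that of Cntn2 at a similar TPM (580 in control).

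Finally, genes with the most similar pattern to Scn9a and Scn10a were found by the Euclidean distance between their 3 log2 ratios to control, over 4 libraries. Nearest to Scn9a was Dio3, which encodes a thyroid hormone-inactivating deiodinase, at a distance of 0.09, with 18.5, 12.3, 10.6 and 3.46 TPM. Its antisense neighbour Dio3os (0.28), Sox21 (0.40), Spp1 (0.49) and Zfp804a (0.49) followed. Nearest to Scn10a was the POU-domain gene Pou3f3, at a distance of 0.25, with 46.1, 22.3, 21.8 and 13.2 TPM. It was followed by Wnt7b (0.31), Gbx2 (0.38), Gchfr (0.40) and Rasef (0.49). All points share the control library, and so short a profile is a description of likeness only. These distances rest on a pseudocount of 1 TPM, and low genes moved with that choice. With 0.1 TPM, Scn10a had log2 ratios to control of -1.64, -1.42 and -2.64. Pou3f3 then had -1.04 and -1.08 in Isl1CKO and Pou4f1KO, so its distance of 0.25 holds for 1 TPM only. In DKO, Dio3os had -2.97 with 0.1 TPM and -0.85 with 5 TPM, against -1.96 as reported. Distances under other pseudocounts are not given here.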

How the data were processed

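Each library came as 1 table of genes with TPM, FPKM and coverage. TPM and FPKM were computed by the authors, and the deposited coverage is the mean read depth over a gene, with no scaling to library size, per the file headers. StringTie, HISAT2, SAMtools, Trimmomatic and FastQC are named, with build mm10, per the submitters' processing notes; order, versions, settings and annotation are not given in the sources used here. Per the labels' protocols the libraries were strand-specific.

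Rows with the same symbol were summed. Genes reaching 1 TPM in at least 1 of 4 libraries (15049 of 25239) were compared by log2 ratios of (TPM + 1), and 2-fold was the threshold. With 1 library per genotype no test was possible. Marker lists covered pan-neuronal, ganglion, neural tube, Hox, otic, ectoderm, glial, mesenchyme, muscle, endothelial, erythroid and macrophage genes. The steps ran in Python 3.11.15 with pandas 2.3.3 and were tested on simulated data. Gigabases of aligned sequence were read from the commonest ratio of coverage to FPKM, shared within a tolerance of 0.001 by 63.3% to 63.5% of rows above 0.01 FPKM. Exon numbers came from GENCODE M21, where 96.5% of symbols were found.

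The members, gene lists and comparisons were chosen with earlier results of these data known. Named genes were all members, the targeted genes, other sodium channel subunits (some are not reported here), compared genes between clustered members, partners past 2-fold with the 4 most abundant others, and the 5 genes nearest in pattern to each member past 2-fold with at least 5 TPM. Nearest genes needed 5 TPM, a symbol on a single row and no Gm or Rik symbol. The alternatives were pseudocounts of 0.1 and 5 TPM, no filter, a 5 TPM filter, FPKM, 3 other scalings, the highest row per symbol and, chosen after seeing the data, coverage per gigabase.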

Additional observations from a re-analysis of the deposited data

Results flagged for a closer look

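For some members the difference tied to 1 label had opposite signs in both backgrounds, with 1 library on each side, so none of these differences was tested. Scn3b had a log2 ratio of 0.05 for Isl1CKO to control and -0.41 for DKO to Pou4f1KO, a change of -0.45. Scn3a had 0.37 for Pou4f1KO to control and -0.04 for DKO to Isl1CKO, a change of -0.40. Scn8a changed by -0.23 (0.20 and -0.03, Isl1 label). Scn1a changed by -0.20 for both labels (0.17 and -0.03 for Isl1, 0.05 and -0.14 for Pou4f1). Scn2b changed by 0.04 (-0.02 and 0.01, Pou4f1 label). In each of these pairs at least 1 value was under 0.1 in size. With libraries scaled to equal pan-neuronal genes only Scn3a kept opposite signs (0.09 and -0.09). The signs were then the same for Scn8a (0.14 and 0.13), Scn3b (-0.02 and -0.24), Scn2b (-0.26 and -0.03) and Scn1a (0.13 and 0.06 for Isl1, -0.09 and -0.17 for Pou4f1). Scn8a in DKO against Pou4f1KO was also above 0 with FPKM (0.02) and coverage per gigabase (0.02). The median of the same quantity over all compared genes was -0.01.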

How the results depend on the processing

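No paired analysis was possible because each genotype had 1 library, and for the same reason no replicate could be left out. Low values limit precision: Scn10a, Scn1a and Scn4b rest on few reads per base. Counts of members past 2-fold were the same under the alternatives except these. A pseudocount of 0.1 TPM gave 2 in place of 1 for DKO against Pou4f1KO, a pseudocount of 5 TPM gave 0 for Isl1CKO, 0 for Pou4f1KO and 1 for DKO against control, and FPKM gave 0 for Isl1CKO and 0 for Pou4f1KO. FPKM is a constant multiple of TPM in a library, so adding 1 weighs more there. The log2 ratio of the summed alpha subunit TPM in DKO ranged from -1.12 (coverage per gigabase) to -0.97 (FPKM). Of 1662 single-gene values, 1633 lay within 1.5 times of the reported one, 29 moved further, all under the pseudocounts or FPKM, and 0 of those past 2-fold turned in sign. Scn9a in DKO against control ranged from -2.23 to -1.87 and Scn10a from -2.64 to -0.81. Over all compared genes, higher and lower counts in DKO against control were 152 and 352, or 343 and 605 with a pseudocount of 0.1 TPM, 51 and 127 with 5 TPM, 75 and 186 with FPKM and 93 and 254 with a 5 TPM filter. For Isl1CKO the same counts were 88 and 93, then 220 and 287, 22 and 14, 36 and 25, and 52 and 51. For Pou4f1KO they were 147 and 260, then 323 and 469, 31 and 87, 71 and 138, and 88 and 167. Pan-neuronal scaling gave 98 and 382 for Pou4f1KO, 116 and 117 for DKO against Pou4f1KO (97 and 168 as reported), and 341 and 122 for the departure (212 and 167).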

Other observations

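Coverage and FPKM did not keep the same ratio in all sodium channel genes. In control the ratio was 16.6 for Scn1a, Scn2b, Scn4b and Scn7a and 16.4 for Scn9a, but 9.01 for Scn8a and 13.5 for Scn2a. GENCODE M21 lists 20 transcripts for Scn8a and 1 for Scn7a. How isoforms enter these values was not tested. From coverage per gigabase, a setting chosen after seeing the data, the plain log2 ratios to control of Scn8a were 0.24, 0.22 and 0.24. Scn4b coverage per gigabase was 0.124 in control and 0.00462 in Isl1CKO, both too low to compare.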
